A study of Danio rerio with 48 samples.

Results

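The genes of the proteasome were followed across 8 groups of zebrafish (Danio rerio) larval heads. Members were all genes whose symbol starts with psm, 1 of the letters a to g and a digit, and 55 of the 25445 genes in the count table matched. Of these, psmc3ip encodes a protein of meiotic recombination and is no proteasome subunit, so it was set apart and 54 genes were described. They encode 9 alpha ring subunits, 7 beta ring subunits, 6 inducible or thymus beta subunits, 7 base ATPases, 4 other base subunits, 9 lid subunits, 3 base chaperones, 3 core chaperones, 5 activator subunits and 1 inhibitor.

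The proteasome is the protease of the cytosol and nucleus that degrades proteins tagged with ubiquitin. Its barrel-shaped core is built of stacked alpha and beta rings, and the active sites lie inside the beta rings. The regulatory particle at the end of the barrel has a base of ATPases that unfold substrates and a lid that removes ubiquitin; activators can take its place, and dedicated chaperones assemble both parts. In immune cells and the thymus, inducible beta subunits replace the constitutive catalytic ones and change which peptides are produced for presentation on class I molecules.

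The larvae were of a mixed wildtype strain and had been exposed from 0 days post fertilisation (dpf) to PFHxS, a fluorinated surfactant given as potassium perfluorohexane-1-sulfonate, with the medium renewed daily. At 5 dpf and at 4 dpf there were 4 groups: the DMSO vehicle, and PFHxS at 7.87, 14 and 25.1 µM, with 0.4% DMSO in every group. Each group held 6 libraries of polyA RNA, 1 for each pool of 15 heads cut off in front of the swim bladder. The labels do not say whether pools stem from different clutches, and p-values therefore cover the spread between these pools, which may be technical.

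Libraries held 16.6 to 39.2 M counts (M stands for 1000000). Levels are given as counts per 1000000 (CPM) after TMM scaling (trimmed mean of M values), and they are not corrected for gene length, so they compare groups and not genes. Every 5 dpf library had a larger scaling factor than every 4 dpf library, with a highest value of 1.92 at 5 dpf and a lowest value of 0.566 at 4 dpf, so each comparison of ages depends on the scaling. Scaling by total counts alone moved the median log2 fold change of all 20723 genes tested, 5 dpf over 4 dpf in DMSO larvae, to 0.88 from 0.20 with TMM. Marker genes of head tissues were present: all 5 listed neuron genes, all 6 of retina and lens and all 4 of cartilage were detected in every DMSO library. So were all 6 liver markers and all 5 exocrine pancreas markers in the table, so detection cannot test the tissue label. At 14 µM and 4 dpf the mean log2 CPM of the liver markers ran from -0.19 (replicate H) to 7.55 (replicate D). In these mixtures of cells, fewer cells of a type and less RNA per cell cannot be told apart.

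Of the 54 genes, 47 had a count in every library and 49 passed the filter on low counts. The 5 below it, psmb8a, psmb9a, psmb11a, psmb11b and psmb12, all encode inducible or thymus beta subunits. Of all 54 and psmc3ip together, 19 genes overlap another gene in the table, 15 of them on the opposite strand, and whether the counting used strand was not given in the sources used here. The genes together took 0.240% of all counts at 5 dpf (mean of 24 libraries, range 0.199 to 0.278%), against 0.326% at 4 dpf (mean of 24 libraries, range 0.277 to 0.399%). The ranges of the 24 libraries at each age nearly met and overlapped only in the 0.277 to 0.278% interval.

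The difference in share between ages lay in a few genes. The 4 with the most counts were psmd1, psmb6, psma1 and psmd3, a list chosen after their values were seen. In DMSO larvae these 4 took 40.4 to 52.0% of the proteasome counts at 5 dpf (mean 45.5%), against 56.1 to 67.2% at 4 dpf (mean 60.9%). The DMSO groups did not overlap, and a share within the set does not depend on the scaling. At 7.87 µM the ages overlapped, with 27.4 to 45.1% at 5 dpf and 37.8 to 70.1% at 4 dpf. At 14 and 25.1 µM they did not. The remaining proteasome genes took 0.131 ± 0.0112% of all counts at 5 dpf and 0.118 ± 0.0134% at 4 dpf in DMSO larvae (mean and SD, n = 6 each), and those groups overlapped.

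**Figure D1:**
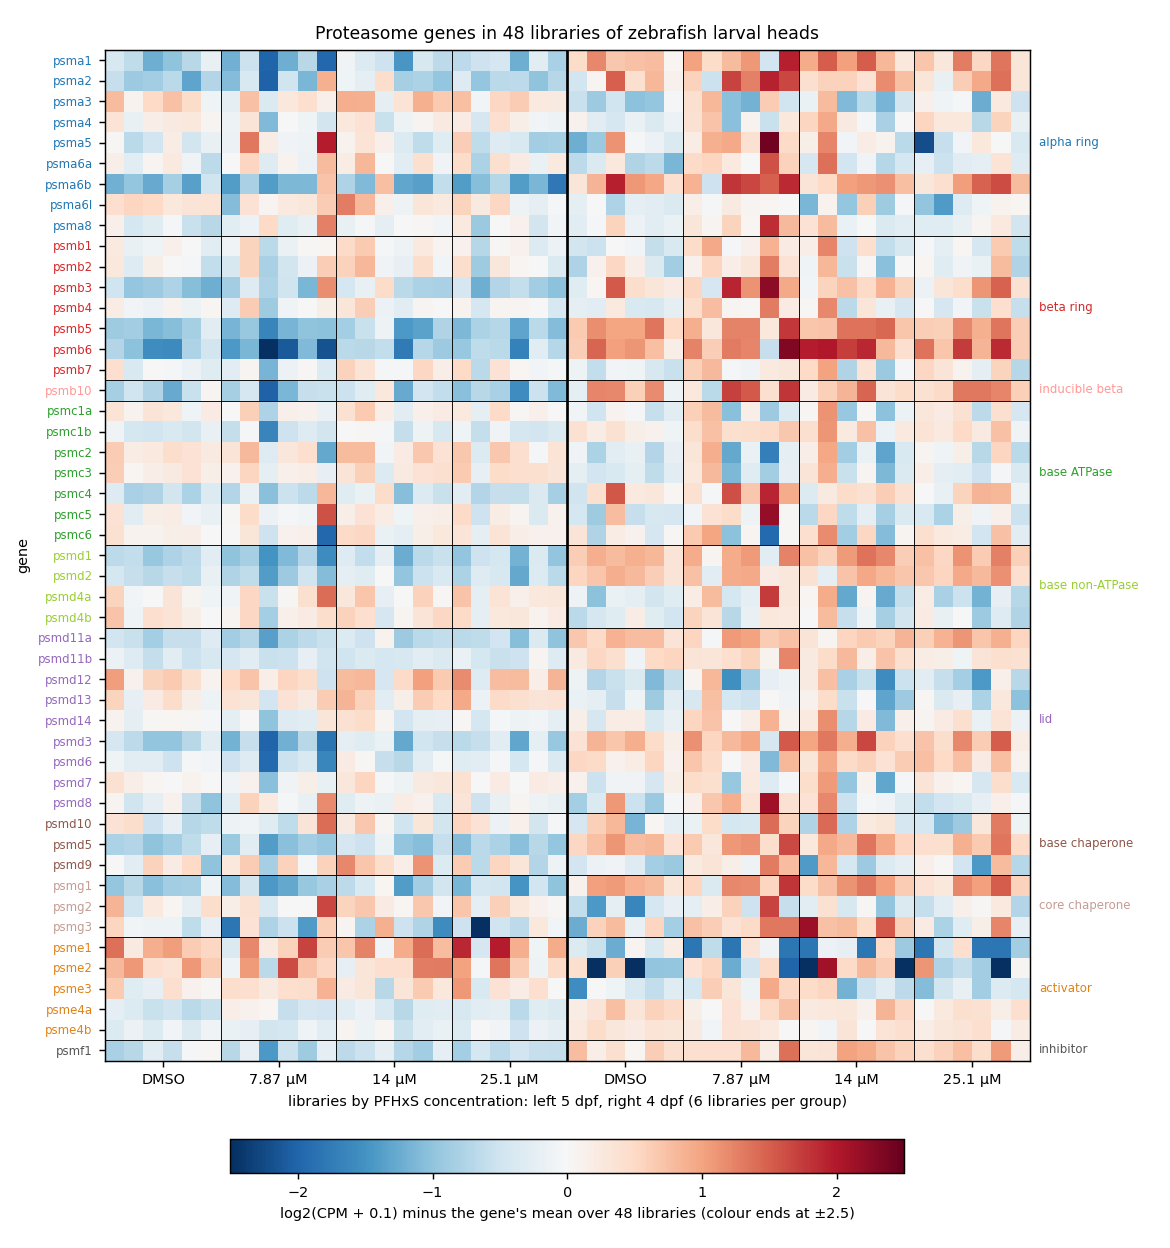
Log2(CPM + 0.1) of the 49 proteasome genes that passed the filter, minus each gene's mean over 48 libraries (colour), with genes in rows by role and libraries in columns, 5 dpf on the left and 4 dpf on the right. Genes such as psmb5, psmb6, psmd1 and psmg1 are lower at 5 dpf in nearly every library, while psmd12 and psme1 are higher, and some libraries at 7.87 µM stand apart from the rest of their group.

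With TMM scaling, more proteasome genes fell than rose between ages in DMSO larvae, an order that turned round when libraries were scaled by total counts. By edgeR's quasi-likelihood F test with Benjamini-Hochberg adjustment over all genes at a threshold of 0.05, 19 of 49 genes fell and 6 rose at 5 dpf relative to 4 dpf, against 20.2% of all genes that fell and 21.7% that rose. With total counts 11 fell and 24 rose, against 6.52% of all genes that fell and 55.6% that rose. The median log2 fold change of the 49 genes was -0.19, against 0.20 over all genes with TMM, and 0.52 against 0.88 with total counts, so the distance between the set and all genes was -0.38 and -0.36. With TMM the sign of this distance differed between intervals of read abundance, as given below. The set's median with TMM was 0.19 without DMSO replicate F at 4 dpf, so that 1 library decides its sign. By TMM-scaled CPM, every 5 dpf library lay below every 4 dpf library in 17 genes, against 14.5% of all genes. In 6 genes every one lay above, against 14.0% of all genes. These separations also depend on the scaling and were not counted with total counts.

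The subunits of the complex did not all move in 1 direction under either scaling. In all 4 comparisons of age (DMSO, 7.87, 14 and 25.1 µM), 7 genes fell both with TMM and with total counts: psma1, psmb5, psmb6, psmd1, psmd3, psmd5 and psmg1. Of all genes 4.29% met this rule. Another 11 genes rose under both scalings in at least 1 of the comparisons: psma3, psma6l, psmc3, psmd4a, psmd4b, psmd9, psmd12, psmd13, psme1, psme3 and psmg2, against 40.0% of all genes. Among them psme1 was scarce at 4 dpf, as given below. With TMM, 14 genes passed the threshold in none of the comparisons (32.9% of all genes), among them psma5, psmb1, psmc2 and psmd8.

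**Figure D2:**
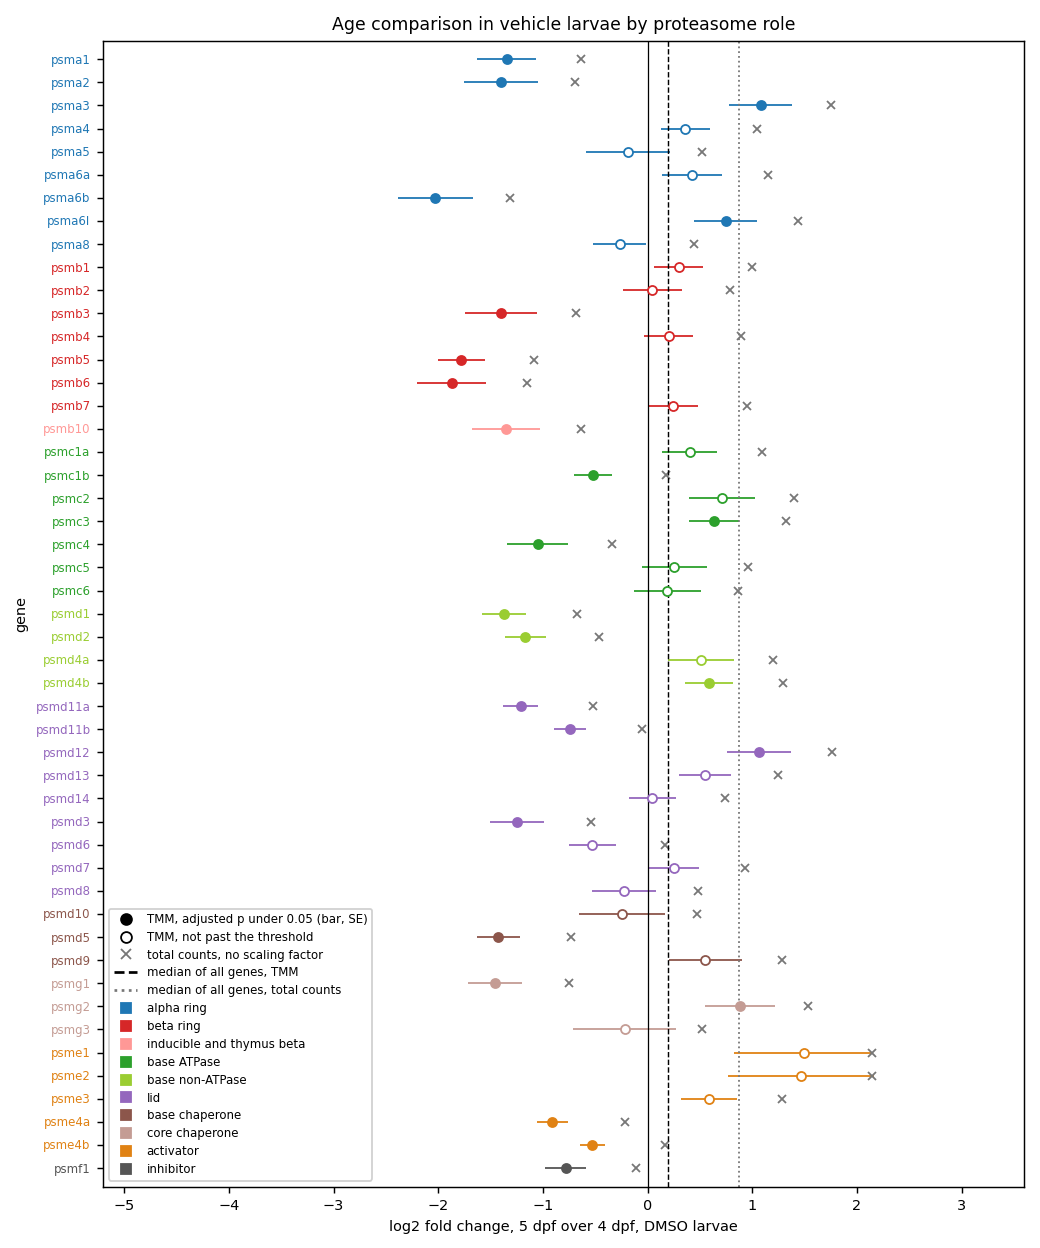
Log2 fold change of 49 proteasome genes at 5 dpf over 4 dpf in DMSO larvae (6 libraries each), by role; circles with SE bars are from TMM scaling, filled where the adjusted p was under 0.05, and crosses are from total counts. Genes of every larger role lie on both sides of the median of all genes, and moving from TMM to total counts shifts all points to the right, so that genes near 0 change side.

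In the alpha ring, which gates the entrance to the core, 3 of 9 genes fell and 2 rose in DMSO larvae with TMM. Of all genes 20.2% fell and 21.7% rose. With total counts psma1 and psma6b fell, and psma3, psma4, psma6a and psma6l rose. The shares of all genes with total counts were 6.52% fallen and 55.6% risen. The largest fall was that of psma6b, which had 15.9 to 28.9 CPM at 5 dpf (median 19.4), against 50.6 to 158 CPM at 4 dpf (median 77.1). No library of one age reached those of the other, and the log2 fold change was -2.03 ± 0.36 (SE; adjusted p = 1.5e-05 by edgeR). It lies on chromosome 20 at 16884386 to 16906768 (minus strand, GRCz11) and overlaps nfkbiaa, an inhibitor gene of NF-kappaB signalling on the opposite strand. The abundant psma1 had 94.6 to 195 CPM at 5 dpf (median 139), against 231 to 507 CPM at 4 dpf (median 363), again with no overlap. In the other direction, psma3 had 10.8 to 20.4 CPM at 5 dpf (median 16.4), against 5.65 to 11.2 CPM at 4 dpf (median 7.07). Its groups overlapped slightly, and its log2 fold change was 1.08 ± 0.30 (SE; adjusted p = 0.0035 by edgeR). The gene psma6l, named after psma6, rose by a log2 fold change of 0.75 ± 0.30 (SE; adjusted p = 0.040 by edgeR), a call that was lost with a term for the order of the columns. For psma5, the log2 fold change was -0.19, which did not pass the test, with 2.13 to 3.96 CPM at 5 dpf and 1.41 to 7.59 CPM at 4 dpf.

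The beta ring was split between catalytic subunits. Of its 7 genes, psmb3, psmb5 and psmb6 fell in DMSO larvae with TMM, and psmb1, psmb2, psmb4 and psmb7 did not pass the test. Of all genes 20.2% fell and 21.7% rose. With total counts psmb3 had a log2 fold change of -0.69 and did not pass. Under that scaling psmb1, psmb2, psmb4 and psmb7 rose, as did 55.6% of all genes. For psmb5 (chromosome 2, 38373272 to 38392576, plus strand, GRCz11), whose subunit carries the chymotrypsin-like activity, the libraries held 39.3 to 71.6 CPM at 5 dpf (median 46.9), against 122 to 217 CPM at 4 dpf (median 171). The lowest 4 dpf library was thus above the highest 5 dpf library, and the log2 fold change was -1.78 ± 0.22 (SE; adjusted p = 6.7e-08 by edgeR). For psmb6 (chromosome 23, 44536926 to 44546153, minus strand), with the caspase-like activity, they held 108 to 237 CPM at 5 dpf (median 175), against 364 to 897 CPM at 4 dpf (median 605). These groups did not overlap either, with a log2 fold change of -1.87 ± 0.33 (SE; adjusted p = 1.6e-05 by edgeR). For psmb7, with the trypsin-like activity, the libraries held 36.8 to 64.8 CPM at 5 dpf (median 44.9), against 31.2 to 45.8 CPM at 4 dpf (median 40.4). These ranges overlapped, and the log2 fold change of 0.24 with TMM did not pass the threshold. The ratio of psmb6 to psmb7 within a library, free of the scaling and of gene length as a comparison between ages, was 2.28 to 6.12 at 5 dpf and 11.1 to 28.7 at 4 dpf; the pair was chosen after its values were seen.

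**Figure D3:**
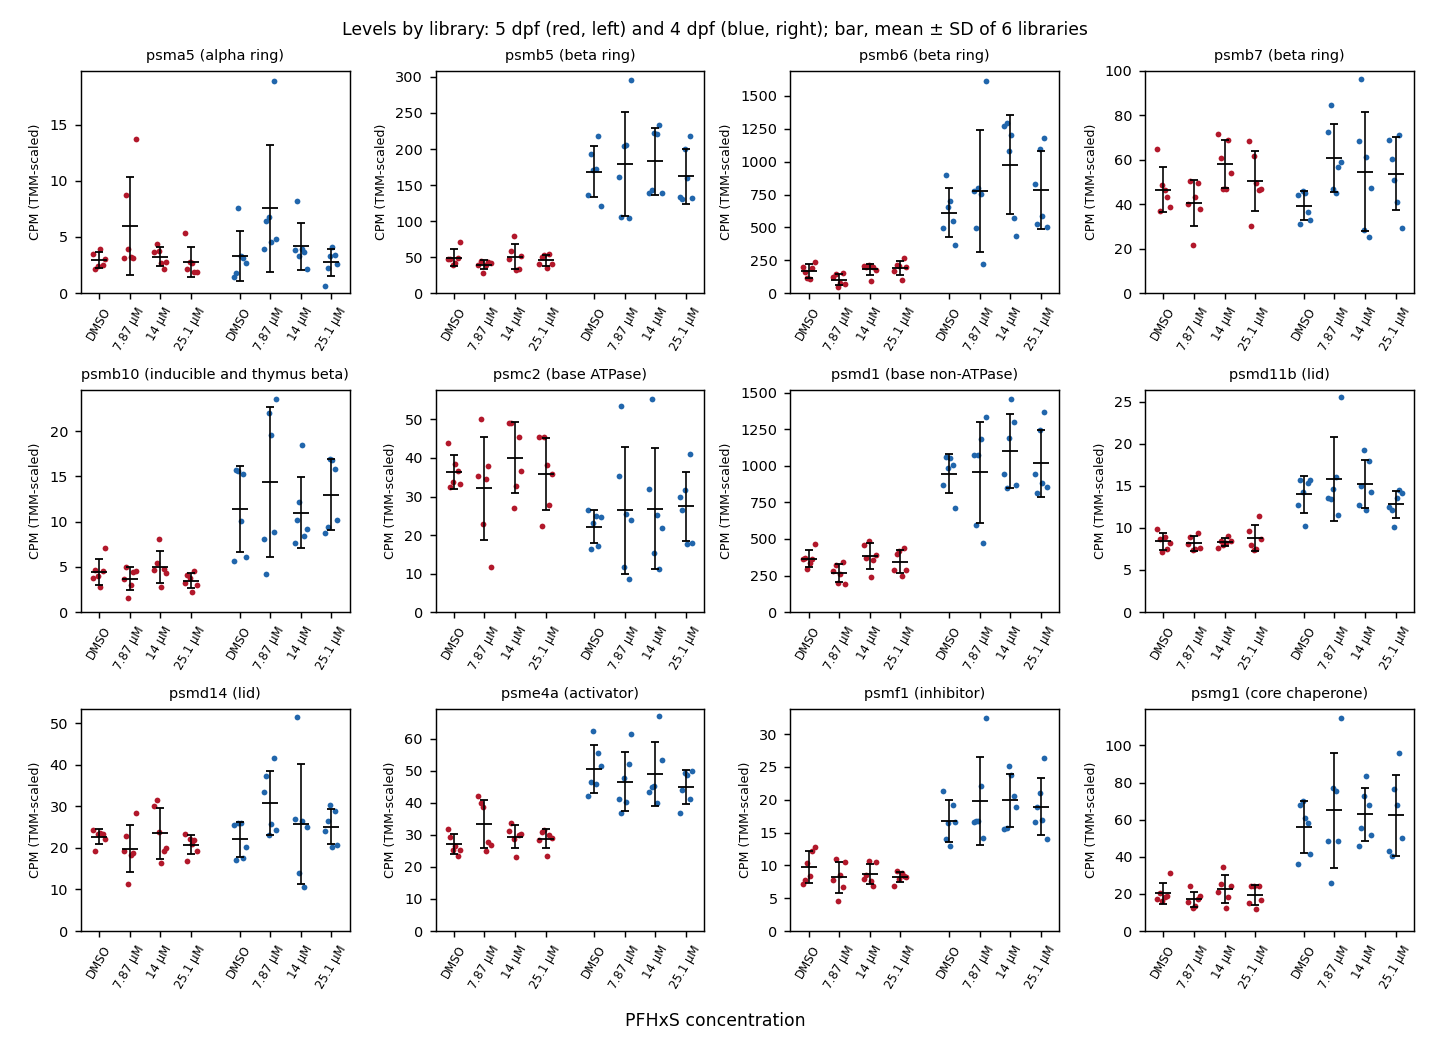
CPM (TMM-scaled) of 12 proteasome genes in each of 48 libraries by PFHxS concentration (points; 5 dpf red on the left, 4 dpf blue on the right; bars, mean ± SD of 6 libraries). The genes psmb5, psmb6, psmd1, psme4a, psmf1 and psmg1 sit lower at 5 dpf in all 4 groups with TMM scaling. With total counts psme4a rose at 7.87 µM and did not pass in the other groups. The genes psmb7 and psmd14 overlap between ages. Lone libraries at 7.87 µM reach 18.9 CPM for psma5 at 4 dpf and 13.7 CPM at 5 dpf.

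Inducible and thymus beta subunits were close to the limit of detection except for psmb10, the inducible counterpart of psmb7. It had 2.75 to 7.03 CPM at 5 dpf (median 4.23), against 5.66 to 15.7 CPM at 4 dpf (median 12.7) in DMSO larvae. The ranges overlapped, and the fall passed the threshold with TMM in all 4 comparisons of age. It overlaps 2 genes of unnamed function on the same strand. The inducible subunits psmb8a and psmb9a, which replace psmb5 and psmb6, summed to 75 and 108 counts over 48 libraries, and no library held more than 13 counts of psmb9a. A value of 3 counts corresponds to 0.0661 to 0.273 CPM, depending on the library. Both genes fell below the filter, so differences between groups were not tested in the main fit. In DMSO larvae psmb8a summed to 15 counts at 5 dpf and 3 at 4 dpf, and psmb9a to 14 and 13. On chromosome 19 the span of psmb8a overlaps psmb12, psmb9a and the peptide transporter gene tap2a, all on the opposite strand.

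For psmb11b, whose mammalian counterpart is restricted to the cortical epithelium of the thymus, 24 counts were found in 8 of 24 libraries at 5 dpf and 0 in all 24 libraries at 4 dpf. At 5 dpf the sums over 6 libraries were 7 counts in DMSO larvae, 6 at 7.87 µM, 4 at 14 µM and 7 at 25.1 µM. Its paralog psmb11a had 12 counts at 5 dpf and 1 count at 4 dpf over 24 libraries each. These numbers are at or under the 3 counts per library taken as the floor in most libraries, so no fold change was derived. The 9 thymus and thymocyte markers present in the table summed to 17.5 to 20.1 CPM at 5 dpf and 19.0 to 37.0 CPM at 4 dpf in DMSO larvae. That sum is led by tcf7 (median 8.91 CPM over 48 libraries). Of these markers 8 were detected in every DMSO library at 5 dpf and 6 at 4 dpf. With total counts 3 of the 8 tested rose and 1 fell, against 55.6% and 6.52% of all genes. Their median log2 fold change was 0.54, against 0.88 over all genes. The part of these markers in the psmb11b and psmb11a counts was not tested.

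The base holds the ATPase ring that threads substrates into the core. Of 7 ATPase genes, psmc1b and psmc4 fell in DMSO larvae and psmc3 rose, the last with a log2 fold change of 0.63 ± 0.24 (SE; adjusted p = 0.027 by edgeR) that was lost with the term for column order. With TMM 20.2% of all genes fell and 21.7% rose. With total counts psmc1b and psmc4 had log2 fold changes of 0.18 and -0.34 in DMSO larvae and did not pass. The ATPase genes psmc1a, psmc2, psmc3, psmc5 and psmc6 rose with total counts, as did 55.6% of all genes. For psmc2, the libraries held 32.5 to 44.0 CPM at 5 dpf (median 35.2), against 16.3 to 26.6 CPM at 4 dpf (median 24.0). The groups did not overlap, although the log2 fold change of 0.72 with TMM missed the threshold (adjusted p = 0.062 by edgeR). Of the 4 other base subunits tested, 2 fell and 1 rose with TMM. With total counts psmd1 and psmd2 fell, and psmd4a and psmd4b rose. The gene psmd1 (chromosome 22, 37631034 to 37716628, plus strand, GRCz11), whose product is the largest subunit of the base, had 295 to 468 CPM at 5 dpf (median 360), against 711 to 1059 CPM at 4 dpf (median 995). With its partner psmd2 it fell under TMM in all 4 comparisons of age, with no overlap in DMSO larvae. The ubiquitin receptor genes psmd4a and psmd4b lay in the other direction, with TMM log2 fold changes of 0.51 (not past the threshold) and 0.59 (past it). Of the 6 proteasome genes that rose in DMSO larvae with TMM, 2 kept their call with the term for column order.

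In the lid, 3 of 9 genes fell and 1 rose in DMSO larvae with TMM, against 20.2% and 21.7% of all genes. With total counts psmd3 and psmd11a fell, and psmd7, psmd12, psmd13 and psmd14 rose. The shares of all genes with total counts were 6.52% fallen and 55.6% risen. The gene psmd3 had 152 to 247 CPM at 5 dpf (median 190), against 335 to 571 CPM at 4 dpf (median 454). Another scaffold gene of the lid, psmd12 (chromosome 6, 21525543 to 21534302, minus strand, GRCz11), had 24.0 to 47.0 CPM at 5 dpf (median 31.7), against 10.5 to 20.7 CPM at 4 dpf (median 15.2). Neither pair of groups overlapped, and the direction of the 2 genes was opposite, with a log2 fold change of 1.07 ± 0.31 for psmd12 (SE; adjusted p = 0.0049 by edgeR). The ratio of psmd3 to psmd12 in a library was 4.27 to 10.3 at 5 dpf and 18.8 to 40.1 at 4 dpf, a pair likewise chosen after its values were seen. For psmd11b the libraries held 7.19 to 9.86 CPM at 5 dpf (median 8.44), against 10.2 to 15.7 CPM at 4 dpf (median 14.8), without overlap. With total counts its log2 fold change of -0.055 in DMSO larvae did not pass (adjusted p = 0.77 by edgeR). The deubiquitinase gene psmd14 had 19.3 to 24.3 CPM at 5 dpf (median 23.2) and 17.0 to 26.0 CPM at 4 dpf (median 22.8), and did not pass the test with TMM.

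Assembly chaperones went both ways. The core chaperone gene psmg1 had 16.2 to 31.0 CPM at 5 dpf (median 18.4), against 36.2 to 70.0 CPM at 4 dpf (median 59.6). Its groups did not overlap, and its log2 fold change was -1.46 ± 0.26 (SE; adjusted p = 1.9e-05 by edgeR). Its partner in the same heterodimer, psmg2, rose, with a log2 fold change of 0.88 ± 0.34 (SE; adjusted p = 0.031 by edgeR) that was lost with the term for column order. Of the 3 base chaperones, psmd5 fell by a log2 fold change of -1.43 ± 0.20 (SE; adjusted p = 6.8e-07 by edgeR), and psmd9 and psmd10 did not pass the test with TMM. Nor did the core chaperone gene psmg3, at -0.22. With TMM 20.2% of all genes fell and 21.7% rose. With total counts psmg1 and psmd5 fell, psmg2 and psmd9 rose, and psmg3 and psmd10 did not pass. The shares of all genes with total counts were 6.52% fallen and 55.6% risen.

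Activators replace or accompany the regulatory particle. The genes psme4a and psme4b, which encode forms of the large monomeric activator, fell with TMM in all 4 comparisons of age. For psme4a the libraries held 23.4 to 31.97 CPM at 5 dpf (median 25.9), against 42.1 to 62.5 CPM at 4 dpf (median 49.1) in DMSO larvae, without overlap. With total counts its log2 fold change of -0.22 in DMSO larvae did not pass. That of psme4b turned to 0.16 in DMSO larvae and did not pass either. Both genes had values above 0 with total counts at the 3 PFHxS concentrations. There psme4b rose with total counts, with log2 fold changes of 0.43, 0.40 and 0.31 at 7.87, 14 and 25.1 µM (adjusted p = 0.0073, 0.012 and 0.048 by edgeR). With total counts psme4a rose at 7.87 µM with 0.44 (adjusted p = 0.024 by edgeR), and its values of 0.022 at 14 µM and 0.11 at 25.1 µM did not pass. The inhibitor gene psmf1 had 7.14 to 12.8 CPM at 5 dpf (median 9.40), against 12.9 to 21.3 CPM at 4 dpf (median 16.6), and with total counts its log2 fold change of -0.11 did not pass either.

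The interferon-inducible activator pair, psme1 and psme2, was scarce. In DMSO larvae psme1 had 0.310 to 0.805 CPM at 5 dpf (median 0.497), against 0.0474 to 0.298 CPM at 4 dpf (median 0.173). The groups did not overlap, but with TMM the adjusted p of 0.065 by edgeR missed the threshold. With total counts psme1 passed in DMSO larvae, with a log2 fold change of 2.15 (adjusted p = 0.0071 by edgeR). With TMM it rose at 25.1 µM, with a log2 fold change of 2.81 ± 0.74 (SE; adjusted p = 0.0018 by edgeR), and also at 14 and 7.87 µM. The call at 7.87 µM was lost with a filter of at least 1 CPM in 6 libraries. It was also lost with only the libraries of the groups compared. The filter does not ask for counts at both ages, so psme1 may have passed it through the 5 dpf libraries alone. The 4 dpf levels in DMSO larvae are close to what 3 counts are worth, so sizes of this gene depend on the prior count. For psme2 the libraries held 0.780 to 1.39 CPM at 5 dpf and 0 to 0.948 CPM at 4 dpf in DMSO larvae, and no comparison of age passed with TMM. With total counts psme2 rose in DMSO larvae and at 7.87 and 25.1 µM (adjusted p = 0.012, 0.043 and 0.032 by edgeR). At 14 µM it did not pass. The nuclear activator psme3 had 4.17 to 8.19 CPM at 5 dpf and 1.71 to 5.17 CPM at 4 dpf. With TMM it passed at 25.1 µM alone, where it rose. The interaction of age and 25.1 µM exposure, which tests that difference from DMSO larvae, gave 0.31 ± 0.38 (SE; adjusted p of 1.00 by edgeR). With total counts psme3 rose in DMSO larvae and at 7.87, 14 and 25.1 µM. Of all genes 55.6% rose in DMSO larvae under that scaling.

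Duplicated genes gave a further contrast that does not depend on the scaling. The ratio of psma6b to psma6a was 2.07 to 5.87 at 5 dpf (median 2.32) and 10.3 to 18.8 at 4 dpf (median 15.9) in DMSO larvae. That of psmc1b to psmc1a was 0.545 to 0.741 at 5 dpf (median 0.686) and 1.07 to 1.52 at 4 dpf (median 1.23). In both pairs the ages did not overlap in DMSO larvae, and the ratio of the b copy to the a copy was lower at 5 dpf than at 4 dpf. The ratio of psmd11b to psmd11a was 0.186 to 0.248 at 5 dpf and 0.108 to 0.226 at 4 dpf, and that of psmd4b to psmd4a 1.41 to 1.93 at 5 dpf and 0.992 to 2.22 at 4 dpf. That of psme4b to psme4a was 1.67 to 2.49 at 5 dpf and 1.31 to 2.00 at 4 dpf. These last 3 pairs overlapped between ages. In PFHxS larvae the ages overlapped in the ratio of psma6b to psma6a at 2 of 3 concentrations. At 7.87 µM it was 1.99 to 4.96 at 5 dpf and 2.52 to 16.5 at 4 dpf. At 14 µM it was 1.36 to 8.85 at 5 dpf and 2.81 to 19.2 at 4 dpf. The ratio of psmc1b to psmc1a did not overlap between ages at any concentration. Reads that match both copies can be divided between them by the estimated counting, so the ratios of such pairs are uncertain.

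The 3 exposed groups repeated the comparison of ages with other libraries on both sides, each against 4 dpf larvae of the same concentration. With TMM, 1 gene rose and 24 fell at 7.87 µM, 6 rose and 20 fell at 14 µM, and 6 rose and 20 fell at 25.1 µM. The shares of all genes that rose and fell were 26.9% and 23.7% at 7.87 µM, 22.0% and 19.0% at 14 µM, and 25.8% and 21.2% at 25.1 µM. With total counts the counts were 14 risen and 12 fallen at 7.87 µM, 23 and 8 at 14 µM, and 26 and 12 at 25.1 µM, so the order turned round as in DMSO larvae. The shares of all genes with total counts were 62.8% risen and 7.25% fallen at 7.87 µM, 61.1% and 5.78% at 14 µM, and 61.3% and 7.28% at 25.1 µM. The largest fall at 7.87 µM was that of psmb6, with 47.6 to 152 CPM at 5 dpf (median 98.0), against 218 to 1614 CPM at 4 dpf (median 766) and a log2 fold change of -2.92 ± 0.34 (SE; adjusted p = 4.0e-09 by edgeR). At 14 µM its log2 fold change was -2.44 ± 0.34 (SE; adjusted p = 2.7e-07 by edgeR), and at 25.1 µM -2.04 ± 0.33 (SE; adjusted p = 3.2e-06 by edgeR). By TMM-scaled CPM, groups did not overlap, with the 5 dpf libraries lower, for 13 genes at 7.87 µM, 11 at 14 µM and 17 at 25.1 µM. The shares of all genes were 8.51%, 7.51% and 15.8%. With the 5 dpf libraries higher there were 0 such genes at each concentration, against 4.88%, 6.09% and 13.4% of all genes. With TMM, 18 genes fell in all 4 comparisons of age and 0 rose in all 4, against 15.6% and 11.2% of all genes.

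Single subunits kept their direction at the other concentrations to differing degrees. For psmb5 the medians at 5 dpf were 40.6, 49.5 and 45.4 CPM at 7.87, 14 and 25.1 µM, against 183, 182 and 147 CPM at 4 dpf. No group of one age overlapped the other at any concentration, with log2 fold changes of -2.20, -1.86 and -1.84. For psmd12 the medians at 5 dpf were 31.4, 37.4 and 38.9 CPM, against 20.3, 15.5 and 14.6 CPM at 4 dpf. Here all 3 pairs of groups overlapped, and the log2 fold change was 0.47 at 7.87 µM, which did not pass, 0.86 ± 0.31 at 14 µM (SE; adjusted p = 0.023 by edgeR) and 1.19 ± 0.31 at 25.1 µM (SE; adjusted p = 0.0017 by edgeR). The alpha subunit gene psma3 rose at 14 µM, with 0.93 ± 0.30 (SE; adjusted p = 0.012 by edgeR), and had log2 fold changes of 0.13 at 7.87 µM and 0.60 at 25.1 µM that did not pass. The lid gene psmd13 rose at 14 µM, with 0.70, and at 25.1 µM, with 0.72 ± 0.25 (SE; adjusted p = 0.015 by edgeR). Of the 6 genes that rose at 14 µM, 1 kept its call when only the libraries of the groups compared were fitted. Genes past the threshold at 1 concentration and not at another are not thereby different between them. No interaction passed by edgeR, but each set 1 concentration against DMSO larvae. Differences between PFHxS concentrations were not tested.

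Read abundance ran alongside the age change of all genes. In DMSO larvae 6.51% of all genes with an average log2 CPM under 2 fell, 17.1% of those from 2 to 4, 37.0% from 4 to 6, 56.4% from 6 to 8 and 70.1% of those at 8 or more. Of the proteasome genes 0 of 7, 5 of 14, 7 of 20, 3 of 4 and 4 of 4 fell in these intervals. The 4 proteasome genes with the most counts thus fell in a class in which most other genes fell too. Within the interval from 4 to 6 the proteasome genes covered both directions, with psma6b, psmg1 and psmd5 falling and psmd12 and psmc3 rising. Medians of the log2 fold change with TMM went both ways. The set's median exceeded that of all genes under 2 (0.75 against 0.55) and from 4 to 6 (0.19 against -0.21). It lay below from 2 to 4 (-0.07 against 0.20), from 6 to 8 (-0.85 against -0.55) and at 8 or more (-1.36 against -0.93).

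**Figure D4:**
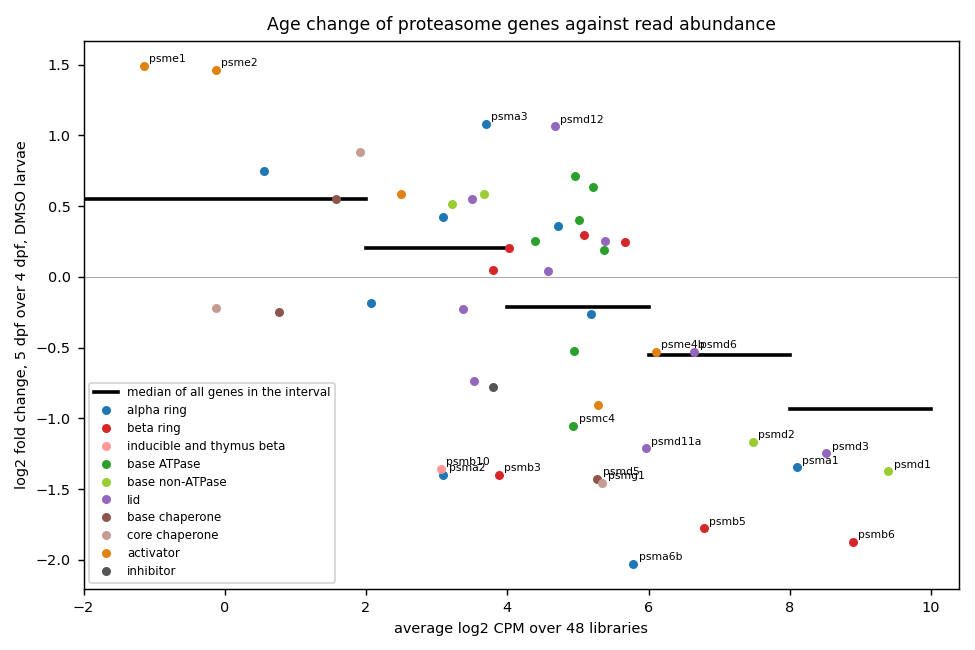
Log2 fold change at 5 dpf over 4 dpf in DMSO larvae (TMM) against average log2 CPM over 48 libraries, for 49 proteasome genes (points, coloured by role) and the median of all genes in 5 intervals of abundance (black lines; the first interval holds all genes under 2 and the last all at 8 or more). All 4 proteasome genes at 8 or more lie below the line of their interval, and genes between 4 and 6 spread on both sides; with total counts all values shift up.

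Genes that work with the proteasome were split as well. In DMSO larvae 20.2% of all genes fell and 21.7% rose with TMM, and 6.52% fell and 55.6% rose with total counts. Of 21 tested genes of ubiquitin and substrate delivery, 15 fell and 0 rose in DMSO larvae with TMM (median log2 fold change -0.82), against 8 that fell and 4 that rose with total counts. Those that fell with TMM include vcp, the ATPase that extracts ubiquitinated proteins, with -0.99 ± 0.16 (SE; adjusted p = 4.0e-06 by edgeR), and rad23b, a shuttle for ubiquitinated substrates, with -1.44 ± 0.24 (SE; adjusted p = 6.2e-06 by edgeR). Of 20 listed partners of the proteasome without a psm symbol, 8 fell and 3 rose with TMM (median 0.06). With total counts 4 fell and 12 rose, so the order turned round under a scaling in which 55.6% of all genes rose. This list also holds tbpl1 and ddb1, which are no such partners. The falls included akirin2, which imports proteasomes into the nucleus, with -1.86 ± 0.23 (SE; adjusted p = 5.4e-08 by edgeR), and adrm1, a ubiquitin receptor of the base, with -1.19 ± 0.21 (SE; adjusted p = 2.1e-05 by edgeR). Class I antigen processing genes had 9 rises and 3 falls of 20 with TMM (median 0.92), and 16 rises and 1 fall with total counts. Interferon response genes had 8 rises and no fall of 14 with TMM (median 1.22), and 11 rises with total counts.

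Other large complexes had their own direction with TMM, under which 20.2% of all genes fell and 21.7% rose in DMSO larvae. The shares of all genes with total counts were 6.52% fallen and 55.6% risen. Of 73 cytosolic ribosomal protein genes 55 fell and 1 rose in DMSO larvae (median -1.16), and with total counts 31 fell and 8 rose. Of 101 respiratory chain genes 63 fell and 8 rose (median -1.08), and with total counts 41 fell and 22 rose. Chaperonin and heat shock genes had 16 falls and 9 rises of 56 (median 0.25). That order turned round to 5 falls and 34 rises with total counts, under which 55.6% of all genes rose. The proteasome median of -0.19 with TMM lay between these values, and no test of the difference between lists was made.

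Several cell type markers differed with age in the same libraries. In DMSO larvae the 6 retina and lens markers summed to 15327 to 18086 CPM at 5 dpf and 25099 to 32999 CPM at 4 dpf, the 4 cartilage markers to 11833 to 23809 CPM at 5 dpf and 29135 to 55668 CPM at 4 dpf, and the 4 erythrocyte markers to 48.8 to 77.8 CPM at 5 dpf and 133 to 249 CPM at 4 dpf. The 6 liver markers summed to 1227 to 2334 CPM at 5 dpf and 79.1 to 752 CPM at 4 dpf, the 5 exocrine pancreas markers in the table to 559 to 2293 CPM at 5 dpf and 8.69 to 105 CPM at 4 dpf, and the 5 intestine markers to 174 to 293 CPM at 5 dpf and 33.2 to 92.2 CPM at 4 dpf. The 8 markers of dividing cells summed to 489 to 820 CPM at 5 dpf and 746 to 1072 CPM at 4 dpf, and their groups overlapped. So did leukocyte markers, with 72.3 to 114 CPM at 5 dpf and 85.0 to 131 CPM at 4 dpf. These TMM sums follow the most abundant genes of each list. With total counts 7 of 11 tested leukocyte markers rose and 0 fell. Cartilage markers had 0 of 4 past the threshold, and dividing cell markers 1 rise and 1 fall of 8. Retina and lens markers had 1 rise and 3 falls of 6, and erythrocyte markers 2 falls of 4. All tested liver, exocrine pancreas and intestine markers rose. Of all genes 55.6% rose and 6.52% fell with total counts. Among all the marker lists, cd4-1 of the thymocyte list was at 0 in every DMSO library at 4 dpf. The part of these cells in the age changes of the proteasome genes was not tested.

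Exposure to PFHxS was compared with DMSO at the same age, and the 3 concentrations of an age share their DMSO libraries. No proteasome gene passed the threshold at any concentration or age by edgeR, DESeq2 or limma, and edgeR called 0 of all 20723 genes (0%) in each of the 6 comparisons. DESeq2 called 0 to 10 of all genes and limma at most 1. At 4 dpf an unadjusted p under 0.05 by edgeR was reached by 17 proteasome genes at 7.87 µM, 3 at 14 µM and 0 at 25.1 µM, all of them higher in PFHxS larvae. The shares of all genes were 7.59% higher and 4.39% lower at 7.87 µM, 2.74% and 2.31% at 14 µM, and 1.60% and 1.01% at 25.1 µM. At 5 dpf it was reached by 8 genes at 7.87 µM, 5 of them higher and 3 lower, and by 0 at 14 and 25.1 µM. The shares of all genes were 2.44% higher and 2.25% lower at 7.87 µM, 0.594% and 0.135% at 14 µM, and 0.463% and 0.207% at 25.1 µM.

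**Figure D5:**
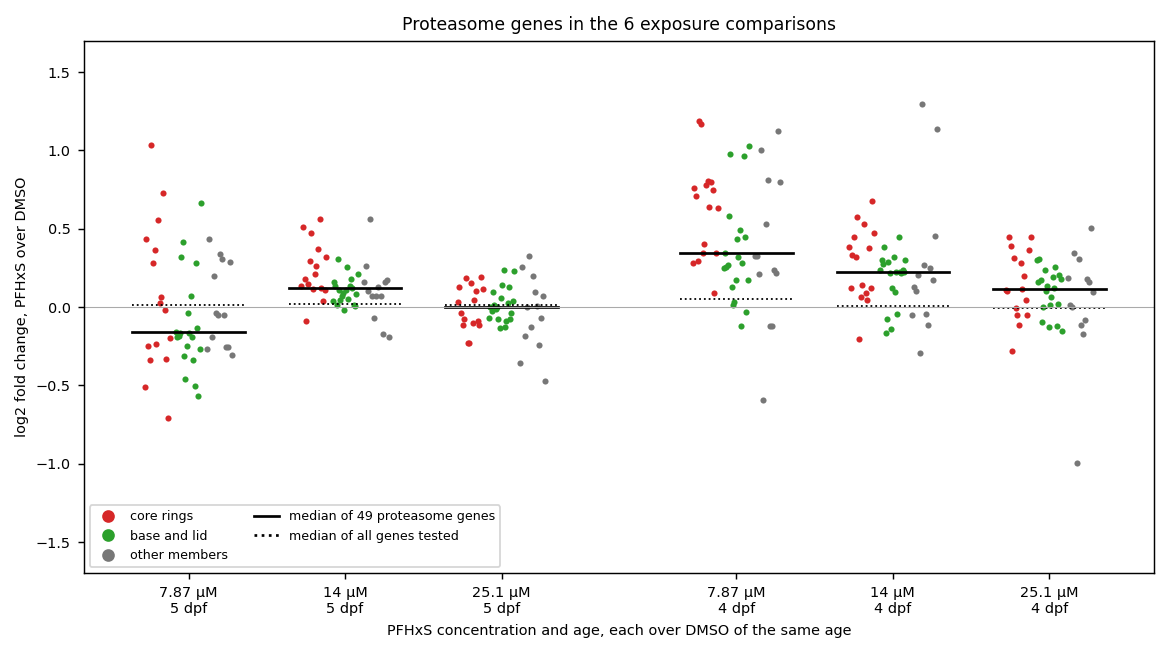
Log2 fold change over DMSO of the same age for 49 proteasome genes at 7.87, 14 and 25.1 µM PFHxS (points, by part of the complex; 5 dpf on the left, 4 dpf on the right), with the median of the set (solid line) and of all genes (dotted line). At 4 dpf the set's median is 0.34, 0.22 and 0.12 with rising concentration, and at 5 dpf it is -0.16, 0.12 and 0.00; the 5 dpf value at 7.87 µM turns positive, 0.03, with total counts, and no gene passed the threshold.

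At 4 dpf more proteasome genes lay above DMSO larvae than below at each concentration. The log2 fold change was above 0 for 44 of 49 genes at 7.87 µM, 40 at 14 µM and 36 at 25.1 µM. The set's medians were 0.34, 0.22 and 0.12, against 0.05, 0.00 and -0.01 over all genes. Without replicate B at 14 µM that median was 0.01, and without replicate F at 25.1 µM it was -0.01. By role, the 9 alpha ring genes had a median of 0.71 at 7.87 µM and the 7 beta ring genes 0.64, all 16 of them positive. The 7 base ATPase genes had a median of 0.27, the 9 lid genes 0.28 and the 5 activator genes -0.12. Nothing here passed the test, and the sizes are given as values only. The 49 genes share their libraries, so their directions are not independent.

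The 3 genes with the smallest p at 7.87 µM and 4 dpf were psma6a, psmb1 and psmd8. The alpha subunit gene psma6a had 7.88 to 23.5 CPM in PFHxS larvae (median 11.1), against 3.49 to 9.34 CPM in DMSO larvae (median 4.91), with a log2 fold change of 1.17 ± 0.29 (SE; adjusted p = 0.21 by edgeR). The 2 lowest PFHxS libraries lay below DMSO replicate F and all 6 lay above the other 5 DMSO libraries. For psmb1, a non-catalytic beta subunit, the log2 fold change was 0.80 ± 0.24 (SE; adjusted p = 0.21 by edgeR), and for the lid gene psmd8 it was 1.03 ± 0.31 (SE; adjusted p = 0.21 by edgeR). The lone gene whose 6 PFHxS libraries all lay above the 6 DMSO libraries was psmc1b, against 0.140% of all genes, with a log2 fold change of 0.35.

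These values rested partly on lone libraries and on the order of the columns. Without DMSO replicate F, edgeR called 4 proteasome genes at 7.87 µM and 4 dpf, psma5, psma6a, psmc5 and psmd8, all higher in PFHxS larvae, among 128 genes in all. With a term for the 16 last against the 32 first columns of the count table, the median of the 49 genes was 0.17 in place of 0.34 at 7.87 µM, 0.13 in place of 0.22 at 14 µM and 0.03 in place of 0.12 at 25.1 µM. All 6 libraries at 7.87 µM and 4 dpf stood in the first 32 columns, together with 2 of the 6 DMSO libraries, replicates B and F. Column order and DMSO replicate F therefore overlap in this comparison, and the part of each was not tested. Proteasome genes took 0.322% of all counts in replicate F and 0.277% in replicate B, which stood in the same columns. In the DMSO libraries of the last 16 columns they took 0.287 to 0.313%. Within the first 32 columns the mean log2 CPM over the subunits was 4.57 at 7.87 µM and 4.33 in DMSO larvae, a difference of 0.25. The last 16 columns held no library at 7.87 µM and 4 dpf.

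Some libraries stood apart from the rest of their group in a set of subunits, picked after the values were seen. For the base ATPase gene psmc5, replicate H at 7.87 µM and 4 dpf held 87.7 CPM, against 17.5 to 26.3 CPM in the other 5 libraries of its group. Replicate I at 7.87 µM and 5 dpf held 58.1 CPM, against 17.2 to 26.4 CPM in the other 5, and DMSO replicate F at 4 dpf held 32.8 CPM, against 10.3 to 14.4 CPM in the other 5. The ATPase gene psmc6 was low in the first 2 of these libraries. It had 9.90 CPM in replicate H at 7.87 µM and 4 dpf, against 19.0 to 76.1 CPM in the rest of the group, and 9.75 CPM in replicate I at 7.87 µM and 5 dpf, against 26.8 to 47.3 CPM in the rest. Both genes encode ATPases of the same ring, and psmc6 was not low in DMSO replicate F, at 43.6 CPM. Without all 3 libraries the median over the 49 genes was 0.45 at 7.87 µM and 4 dpf and no gene was called.

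At 14 µM and 4 dpf the smallest p belonged to the core chaperone gene psmg3, with a log2 fold change of 1.13 ± 0.49 (SE; adjusted p = 0.97 by edgeR), psmb1, with 0.53 ± 0.23 (SE; adjusted p = 0.97 by edgeR), and psmb6, with 0.67 ± 0.32 (SE; adjusted p = 0.97 by edgeR). For psmb6 the libraries held 436 to 1296 CPM in PFHxS larvae (median 1142), against 364 to 897 CPM in DMSO larvae (median 605), and they overlapped. At 25.1 µM and 4 dpf the smallest p belonged to psmb7, psma4 and psma3, with log2 fold changes of 0.45 ± 0.24, 0.39 ± 0.24 and 0.45 ± 0.30 (SE; adjusted p of 1.00 each by edgeR).

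At 5 dpf the values were smaller. At 7.87 µM, 18 of 49 genes had a log2 fold change above 0, and the set's median of -0.16 became 0.03 with total counts. The smallest p belonged to psma5, with 3.10 to 13.7 CPM in PFHxS larvae (median 3.59) and 2.13 to 3.96 CPM in DMSO larvae (median 2.75), and a log2 fold change of 1.03 ± 0.40 (SE; adjusted p = 0.99 by edgeR). Without replicate I its log2 fold change was 0.59. The lid gene psmd6 followed with -0.57 ± 0.22 and psmd1 with -0.46 ± 0.21 (SE; adjusted p = 0.99 each by edgeR). At 14 µM 44 genes were above 0 (median 0.12), and at 25.1 µM 26 genes were (median 0.00). The medians over all genes with TMM were 0.01, 0.02 and 0.01 at 7.87, 14 and 25.1 µM. Here too the 49 genes share their libraries. The smallest p at 14 µM belonged to psmb3, psmd9 and psma2 (log2 fold changes of 0.56 ± 0.34, 0.56 ± 0.34 and 0.51 ± 0.35, SE), and at 25.1 µM to psmf1, psmb10 and psmd13 (-0.24 ± 0.20, -0.36 ± 0.32 and 0.24 ± 0.24, SE), with an adjusted p of 1.00 each by edgeR.

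The difference of the exposure effect between ages was tested as an interaction. No proteasome gene and 0 of all genes passed by edgeR at 25.1, 14 or 7.87 µM. The medians of the interaction over 49 genes, 5 dpf minus 4 dpf, were -0.48 at 7.87 µM, -0.14 at 14 µM and -0.16 at 25.1 µM, and with the term for column order they were -0.24, 0.02 and 0.01. At 7.87 µM 11 genes had an unadjusted p under 0.05, against 6.56% of all genes, and 0 genes had one at 14 µM (2.31% of all genes) and at 25.1 µM (1.84%). At 7.87 µM the smallest p belonged to psmb7 with -0.83 ± 0.34, psmb1 with -0.78 ± 0.33 and psmb6 with -1.05 ± 0.45 (SE; adjusted p = 0.72 each by edgeR). At 14 µM the smallest belonged to psmg3, psma4 and psmf1 (-1.33 ± 0.69, -0.53 ± 0.34 and -0.42 ± 0.28, SE), and at 25.1 µM to psmf1, psma4 and psme1 (-0.42 ± 0.28, -0.50 ± 0.34 and 1.32 ± 1.00, SE), with an adjusted p of 1.00 each by edgeR.

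Ribosomal and respiratory chain genes were also mostly above 0 at 7.87 µM and 4 dpf. All 73 ribosomal protein genes and 100 of 101 respiratory chain genes had log2 fold changes above 0 (medians 0.52 and 0.43), and no gene of either list passed the threshold by edgeR. The proteasome partners had a median of 0.13, ubiquitin and substrate delivery genes 0.17, and class I antigen processing genes 0.08. The erythrocyte markers summed to 112 to 382 CPM at 7.87 µM (median 302), against 133 to 249 CPM in DMSO larvae (median 183) at 4 dpf. Liver markers had medians of 328, 510 and 668 CPM at 7.87, 14 and 25.1 µM, against 148 CPM in DMSO larvae. Exocrine pancreas markers had medians of 41.9, 60.9 and 134 CPM at these concentrations, against 27.5 CPM in DMSO larvae. Each of these groups overlapped with DMSO larvae, and the part of these cells in the proteasome values was not tested.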

How the data were processed

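The authors deposited expected counts, that is estimated reads for each gene without normalization, in which 77.5% of values were whole within 1e-09. Their log2 table, quantile-normalized by the authors, served as an alternative. The build GRCz11 and the tools Partek 8.0.19.0428 and STAR 2.5.3a are named, per the submitters' processing notes; what each tool did, and how strand and shared reads were handled, is not given in the sources used here.

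Counts were rounded, filtered with filterByExpr (20723 genes kept) and fitted in 1 model of 8 group means over 48 libraries, with TMM scaling, in edgeR 4.0.16 (quasi-likelihood F test, R 4.3.3). The 13 comparisons were 6 of exposure, 4 of age and 3 interactions; p-values were adjusted over all genes of a comparison by Benjamini-Hochberg at 0.05, and an SE is the log2 fold change divided by the square root of F. The code was tested on simulated data. Per comparison, values with SE are given for at most the 5 largest rises and 5 largest falls past the threshold, or for the 3 smallest p where none passed; chosen members of each role are given by library. Alternatives were other scalings and filters, DESeq2 1.42.0, limma 3.58.1 on the log2 values (pseudocount 1), a term for column order, the title letter as a block, fewer groups, and each library left out; leaving out 3 libraries together was chosen after seeing the data. The members, lists and tests were chosen with earlier results of these data known. Counting floors of 3 counts cover counting error only.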

Additional observations from a re-analysis of the deposited data

Results flagged for a closer look

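In 15 chosen proteasome genes and 8 groups of 6 libraries, 120 sets of values were examined. In 10 of them the gap of 1 library to the nearest other exceeded a fixed part of the group's range. The rule flags about 1 in 20 sets of independent normal values. These genes share libraries and CPM need not be normal, so that rate cannot be set against the 10. For psma5 the high libraries held 8.21 CPM at 14 µM and 4 dpf (replicate B), 18.9 CPM at 7.87 µM and 4 dpf (replicate H), 7.59 CPM in DMSO larvae at 4 dpf (replicate F) and 5.37 CPM at 25.1 µM and 5 dpf (replicate C). The next libraries of those groups held 3.92, 6.76, 3.32 and 2.74 CPM. For psmb5 a low library at 7.87 µM and 5 dpf (replicate F) held 27.3 CPM, and a high DMSO library at 5 dpf (replicate I) held 71.6 CPM. That DMSO library also held 31.0 CPM of psmg1. For psmb6 a low library at 14 µM and 5 dpf (replicate G) held 95.0 CPM. High libraries held 25.5 CPM of psmd11b at 7.87 µM and 4 dpf (replicate I) and 9.59 CPM of psme3 at 7.87 µM and 5 dpf (replicate I).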

How the results depend on the processing

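In the exposure and interaction comparisons no setting called a proteasome gene, except that leaving out DMSO replicate F at 4 dpf called 4 at 7.87 µM (range 0 to 4 over single libraries left out). Counts of age calls kept within 1.5 times of 25 in DMSO larvae (21 to 25 with a library left out), 25 at 7.87 µM, 26 at 14 µM and 26 at 25.1 µM. In some settings the rises within these totals held less well than the falls. In DMSO larvae 2 of 6 rises and 19 of 19 falls kept their call with the term for column order. At 14 µM 1 of 6 rises and 19 of 20 falls did with only the libraries of the groups compared. Without replicate H at 4 dpf 2 of 6 rises and 17 of 20 falls at 14 µM did. With total counts 6 of 6 rises and 11 of 19 falls in DMSO larvae did. With total counts the median log2 fold changes between ages were 0.52 in DMSO larvae, 0.28 at 7.87 µM, 0.59 at 14 µM and 0.74 at 25.1 µM, in place of -0.19, -0.49, -0.17 and -0.08; the change of scaling moves all genes. The term for column order gave 0.17 in place of 0.34 at 7.87 µM and 4 dpf, -0.24 in place of -0.48 for the 7.87 µM interaction, 0.02 in place of -0.14 and 0.01 in place of -0.16 for the 14 and 25.1 µM interactions, and -0.34 in place of -0.19 for the age median in DMSO larvae; the cause was not tested. The DMSO age median was 0.19 without the 3 libraries, and -0.31 to 0.19 with 1 library left out, turning positive without DMSO replicate F at 4 dpf; the 14 µM interaction ran from -0.23 to 0.13, positive without replicate B at 14 µM and 4 dpf. The age medians at 14 and 25.1 µM reached 0.03 without replicate B and 0.09 without replicate F of those groups at 4 dpf. Medians at 4 dpf with 1 library left out ran from 0.01 to 0.29 at 14 µM and from -0.01 to 0.23 at 25.1 µM. Of the single genes past the threshold between ages, or with the smallest p elsewhere, 1565 results with a library left out kept their direction and side of the threshold, 89 lost the threshold, 2 gained it and 0 reversed. In other settings 1322 kept both, 73 lost the threshold and 17 reversed, 15 of them with total counts. These were psmb4, psmb7 and psmd14 at 7.87 µM (0.17, 0.21 and 0.14), psmc1b at 14 µM, 25.1 µM and in DMSO larvae (0.10, 0.11 and 0.18), psmd11b and psmd6 at 25.1 µM (0.20 and 0.0029), psme4a at 7.87, 14 and 25.1 µM (0.44, 0.022 and 0.11), and psme4b at 7.87, 14 and 25.1 µM and in DMSO larvae (0.43, 0.40, 0.31 and 0.16). With limma psme4b came to 0.0067 at 7.87 µM and 0.0084 at 14 µM. The labels do not say what the letters in the titles mark. Same-letter libraries of different groups correlated over 0.1 in 19 of 23 pairs at 4 dpf and 17 of 28 at 5 dpf, not in every pair. Pairs of different letters did so in 57 of 193 cases at 4 dpf and 58 of 188 at 5 dpf. The median correlation was 0.31 for the same letter and -0.06 for different letters at 4 dpf, and 0.12 and -0.03 at 5 dpf. Of 48 libraries, 18 correlated best with one of their own letter, a hint from the data and not from the design. With the letter as a replicate block there were 29 age calls in DMSO larvae in place of 25 and no exposure or interaction call. The age medians under this block were -0.05 in DMSO larvae, -0.55 at 7.87 µM, 0.06 at 14 µM and 0.01 at 25.1 µM, so the last 2 turned sign, and the 4 dpf exposure medians were 0.34, 0.12 and 0.09 at 7.87, 14 and 25.1 µM. Depth limited the 5 genes below the filter and psme1.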
